A study of Danio rerio with 15 samples.

Results

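Hox genes encode homeodomain transcription factors that lie in clusters, and within a cluster their order follows the order in which they are used from the hindbrain to the tail. Low paralog numbers pattern the hindbrain and the pharyngeal arches, middle numbers the trunk and the position of the pectoral fins, and high numbers the tail and the outgrowing fins. Hox proteins bind DNA with TALE homeodomain partners of the Pbx and Meis families, and their clusters are opened in sequence by retinoic acid, Cdx and Fgf signals and held shut by Polycomb proteins.

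The Hox cluster genes were taken as all entries of the count table whose symbol was hox, a cluster letter, a paralog number and a copy letter. This gave 49 genes of 47048 entries, in 7 clusters. They were hoxa1a, hoxa3a, hoxa4a, hoxa5a, hoxa9a, hoxa11a and hoxa13a of the hoxaa cluster and hoxa2b, hoxa9b, hoxa10b, hoxa11b and hoxa13b of the hoxab cluster. The hoxba cluster gave 11 genes and the hoxbb cluster hoxb1b, hoxb5b, hoxb6b and hoxb8b. The hoxca cluster gave 11 genes, the hoxcb cluster hoxc6b, hoxc11b, hoxc12b and hoxc13b, and the hoxda cluster 7 genes. All 49 passed the filter on low counts and were tested among 23874 entries. A further 4 entries with a Hox symbol and a numbered suffix, hoxb1b_1, hoxb5b_1, hoxb6b_1 and hoxb8b_1, fell outside the rule and held at most 2 reads over all libraries.

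The embryos were zebrafish (Danio rerio) of the Tropical 5D wild-type strain, exposed from 8 hours post fertilization (hpf) and collected whole at 48 hpf. The exposed groups received 47 uM of FBSA (perfluorobutane sulfonamide), PFBS (perfluorobutane sulfonic acid), PFPeA (perfluoropentanoic acid) or 42FTS (a fluorotelomer sulfonic acid), and the Control group received 0 uM, with methanol brought to 0.5% in all. FBSA and PFBS share the perfluorobutyl chain and differ in the head group, and PFPeA carries a carboxylic acid. Every group had 3 libraries of messenger RNA, each from 10 pooled embryos, so a level is an average over all tissues of 10 animals. The labels do not say whether the pools were taken from separate clutches. The p-values therefore cover the spread among these pools, which may be technical. In such pools, fewer cells of a type and less RNA per cell cannot be told apart.

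Reads in genes ranged from 24249287 to 32686343 per library, and reads in Hox genes from 24810 to 34981, which was 0.0981% to 0.108% of gene counts. The unaligned share of reads was 9.92% to 9.94% in 42FTS 2 and Control 3, and 6.32% to 6.73% elsewhere. FBSA 2 was the extreme library on principal component 1 of the tested entries. The header of the count table names a pair of PFBS columns alike, and these are called PFBS a and PFBS b beside PFBS 2. Mean counts per Hox gene ranged from 22.8 for hoxb8b to 5540 for hoxb3a, with a median of 376. Levels are CPM, that is, counts scaled to library size by the trimmed mean of M-values (TMM), and are not divided by gene length, so they are compared between libraries and not between genes. Changes are log2 ratios from edgeR's quasi-likelihood fit, and a gene was called changed at a Benjamini-Hochberg adjusted p under 0.05 over all entries.

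FBSA was the compound with called Hox genes against Control. In FBSA embryos hoxa3a, hoxa2b, hoxb2a and hoxb8b rose and hoxb5a and hoxb6b fell, which was 6 of 49 genes, where 9.53% of all entries tested were called, 5.28% higher and 4.25% lower. In the front of the body (paralogs 1 to 4) 3 of 14 genes were called. All 14 of these genes had a log2 change above 0 in FBSA embryos, with a median of 0.24. All 14 also lay above 0 in edgeR with RLE size factors and in DESeq2, whose default scaling is of the same RLE type. In the middle and the back 5 of 12 genes of paralogs 5 to 8 (median -0.02) and 12 of 23 genes of paralogs 9 to 13 (median 0.01) lay above 0. The difference between bands was not tested, and one-sided counts were also found between groups with 0 called genes. Over all entries 50.7% lay above 0, with a median of 0.01. Against Control, 0 of 49 Hox genes were called in PFBS, PFPeA and 42FTS embryos, by edgeR and by DESeq2. By edgeR 0% of all entries were called in each of these comparisons, so this is not particular to Hox genes.

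**Figure D1:**
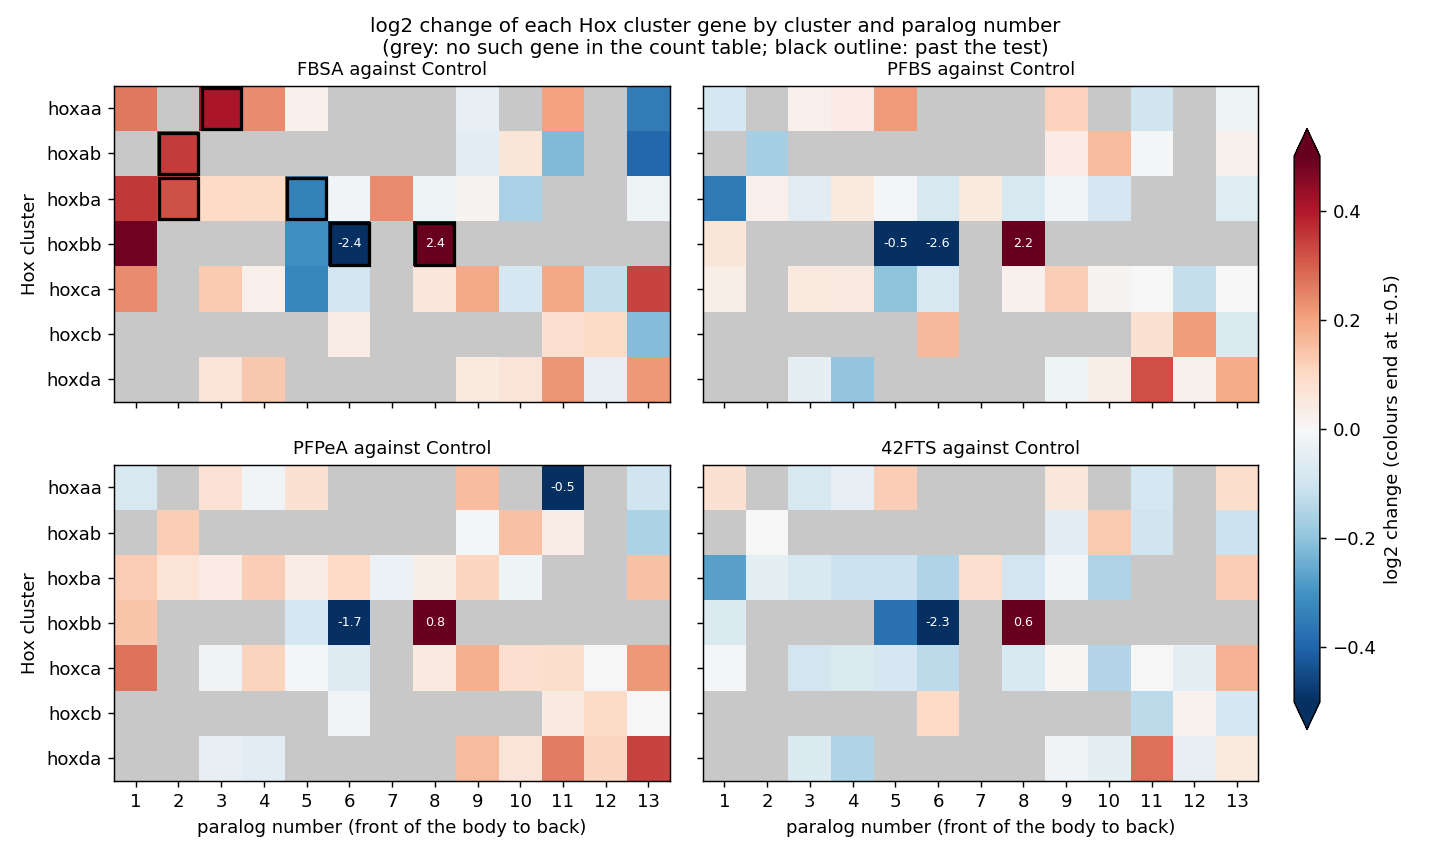
log2 change of each Hox gene against Control, one panel per compound, with clusters down the page and paralog number across it (red higher and blue lower in exposed embryos, colours ending at ±0.5 with larger changes printed, grey where there is no gene). Black outlines mark the 6 genes called for FBSA. In the FBSA panel the genes of paralogs 1 to 4 all lie above 0, from 0.03, which is nearly white, to 0.49.

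Paralog group 3 held the gene with the smallest adjusted p. hoxa3a, whose mouse counterpart is needed for the thymus and parathyroid from the third pharyngeal pouch, had 48.1, 52.5 and 46.5 CPM in FBSA libraries, against 36.3, 38.4 and 36.0 CPM in Control libraries. All 3 FBSA libraries lay above all 12 others, whose highest value was 40.9 CPM in PFPeA 2. The log2 change of hoxa3a in FBSA embryos against Control was 0.41 (SE 0.07, adjusted p = 0.00254). Its call against Control held in all 12 alternative fits, with log2 changes of 0.36 to 0.45. The other group 3 genes did not pass the test. hoxb3a, which is expressed in the posterior hindbrain and had the most reads of the hoxba cluster, averaged 190 ± 12.0 CPM in FBSA libraries and 177 ± 2.91 CPM in Control libraries (SD, n = 3 each), a log2 change of 0.10 that did not pass (adjusted p = 0.285). hoxd3a, with the most reads of the hoxda cluster, averaged 70.4 ± 0.297 CPM in FBSA libraries and 67.4 ± 3.48 CPM in Control libraries. Its log2 change of 0.06 did not pass, nor did that of hoxc3a (0.13).

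Both genes of paralog group 2 were called higher in FBSA embryos. In zebrafish hoxa2b and hoxb2a together give the second pharyngeal arch its identity. hoxa2b had 25.6, 28.9 and 24.6 CPM in FBSA libraries, against 20.7, 20.3 and 21.0 CPM in Control libraries. The groups did not overlap, and the log2 change of hoxa2b was 0.35 (SE 0.09, adjusted p = 0.0225). hoxb2a had 40.0, 49.0 and 37.7 CPM in FBSA libraries, against 32.1, 33.4 and 36.1 CPM in Control libraries. The FBSA libraries of hoxb2a were again all above Control, FBSA 2 by the most, and the log2 change was 0.32 (SE 0.09, adjusted p = 0.0398). Without FBSA 2 the log2 change of hoxa2b was 0.28 (adjusted p = 0.11) and that of hoxb2a 0.20 (adjusted p = 0.197), so neither was called. Each was also no longer called when any 1 Control library was left out, with adjusted p-values of 0.0556 to 0.073 for hoxa2b and 0.0519 to 0.139 for hoxb2a.

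Paralog group 1 genes act first in the hindbrain, and hoxb1a gives rhombomere 4 its identity. hoxa1a had 22.4, 25.2 and 25.5 CPM in FBSA libraries, against 20.5, 18.6 and 21.8 CPM in Control libraries. The groups did not overlap, but the log2 change of 0.26 missed the threshold (SE 0.09, adjusted p = 0.0803). hoxb1b, which acts upstream of hoxb1a in the early hindbrain, had 1.08, 1.82 and 1.65 CPM in FBSA libraries, against 0.792 to 1.36 CPM in Control libraries. These overlapped, and the log2 change of 0.49 had a 95% confidence interval (CI) of -0.33 to 1.30. hoxb1a had 2.64, 4.95 and 3.77 CPM in FBSA libraries, against 3.12, 2.99 and 2.77 CPM in Control libraries, where FBSA 1 lay below and FBSA 2 and FBSA 3 above all Control libraries. Its log2 change was 0.35 (95% CI -0.14 to 0.85), and that of hoxc1a was 0.24 (95% CI -0.20 to 0.68). The sum over the 4 genes of group 1 was 34.2 ± 3.08 CPM in FBSA libraries and 28.2 ± 1.84 CPM in Control libraries (SD, n = 3 each).

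Paralog group 4 genes mark the caudal hindbrain and anterior spinal cord. The log2 changes in FBSA embryos were 0.24 for hoxa4a, 0.10 for hoxb4a, 0.03 for hoxc4a and 0.13 for hoxd4a, all with a 95% CI that held 0. Of the 14 genes of paralogs 1 to 4, 3 were called higher and 0 lower, where 5.28% of all entries were called higher. In 5 of the 14, hoxa1a, hoxc1a, hoxa2b, hoxb2a and hoxa3a, every FBSA library lay above every Control library, and 14.5% of all entries did so.

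**Figure D2:**
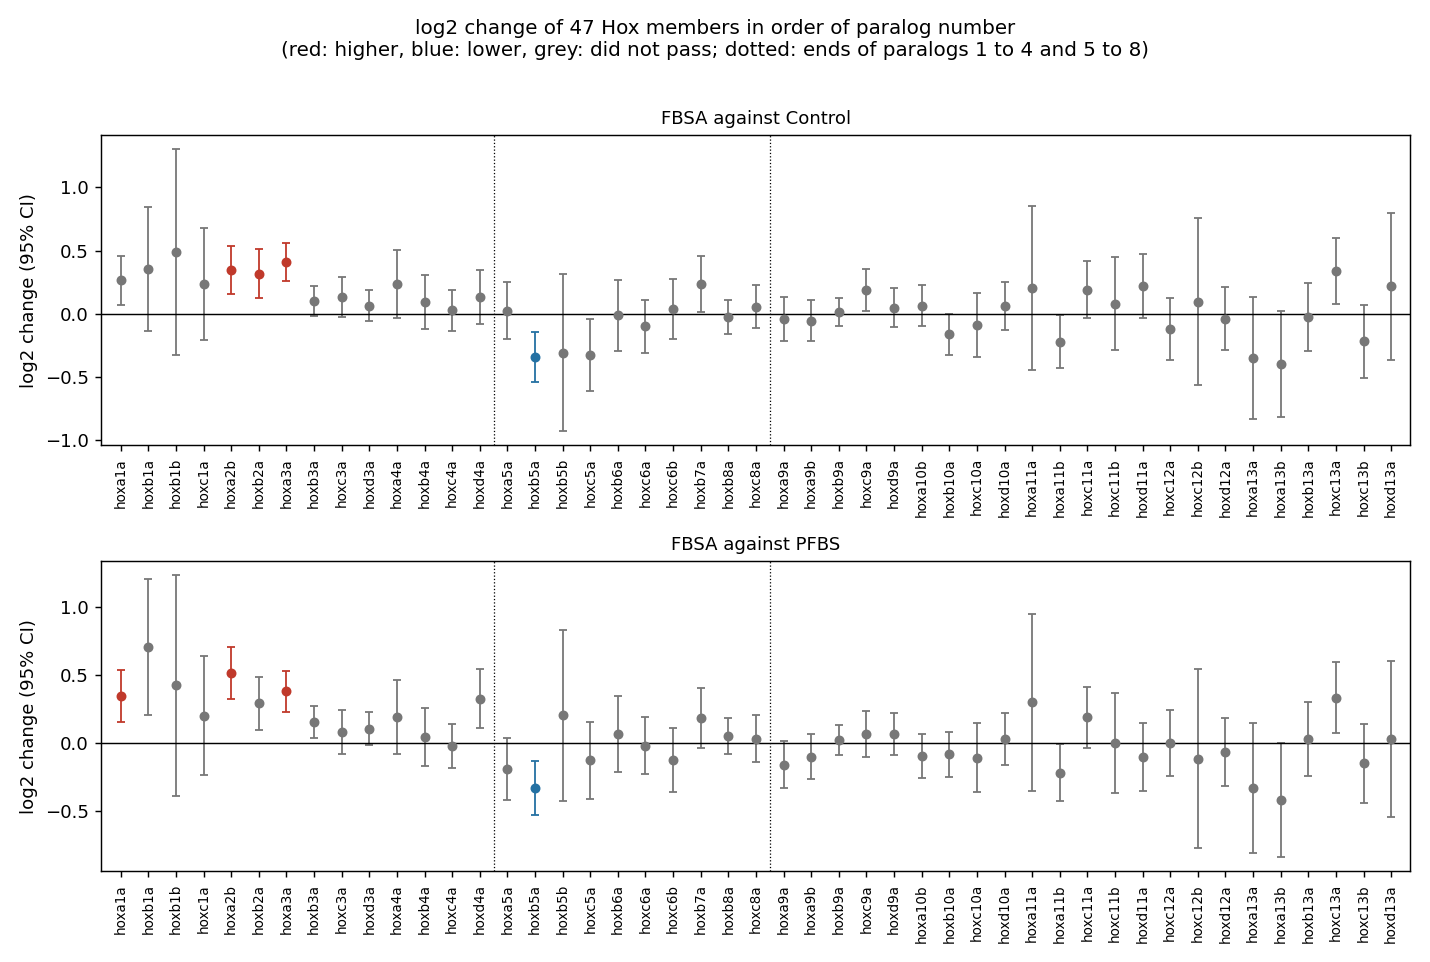
log2 change with its 95% CI for 47 Hox genes in order of paralog number, in FBSA against Control embryos (upper panel) and FBSA against PFBS embryos (lower panel), with points red or blue where called and grey where not, and with hoxb6b and hoxb8b left out. The first 14 points of the upper panel lie above 0, and hoxb5a is the only blue point in each panel.

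Taken as shares of the same counts, the front genes held more of all Hox reads. Paralogs 1 to 4 took 50.1%, 53.0% and 50.3% of Hox counts in FBSA libraries. PFBS libraries had 46.7% to 47.8%, PFPeA libraries 46.6% to 48.2%, 42FTS libraries 46.9% to 47.7% and Control libraries 47.9% to 48.0%, so the FBSA libraries stood above all 12 others. hoxb3a, the gene with the most reads, was also left out of both the front counts and the Hox counts. The front share was then 39.5% to 42.4% in FBSA libraries and 36.7% to 37.4% in Control libraries. The share of paralogs 5 to 8 was 17.3% to 18.6% in FBSA libraries and 19.5% to 20.1% in Control libraries, and that of paralogs 9 to 13 was 29.7% to 31.6% in FBSA libraries and 32.0% to 32.6% in Control libraries. The shares of the bands add up to the whole in each library, so a larger front share lowers the others. They do not show that genes of paralogs 5 to 13 fell. Among the 14 front genes, 10 were above their Control mean in FBSA 1, 14 in FBSA 2 and 14 in FBSA 3. In the other exposed libraries that number was 3 to 8 in PFBS, 5 to 11 in PFPeA and 2 to 5 in 42FTS. PFPeA 1, with 11, was above FBSA 1. In Control libraries the number was 6 to 8, but the Control mean comes from those same libraries. The Control numbers are therefore no independent reference. FBSA 2 had the highest share, and without it the median log2 change of paralogs 1 to 4 was 0.13, with 13 of 14 above 0.

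**Figure D3:**
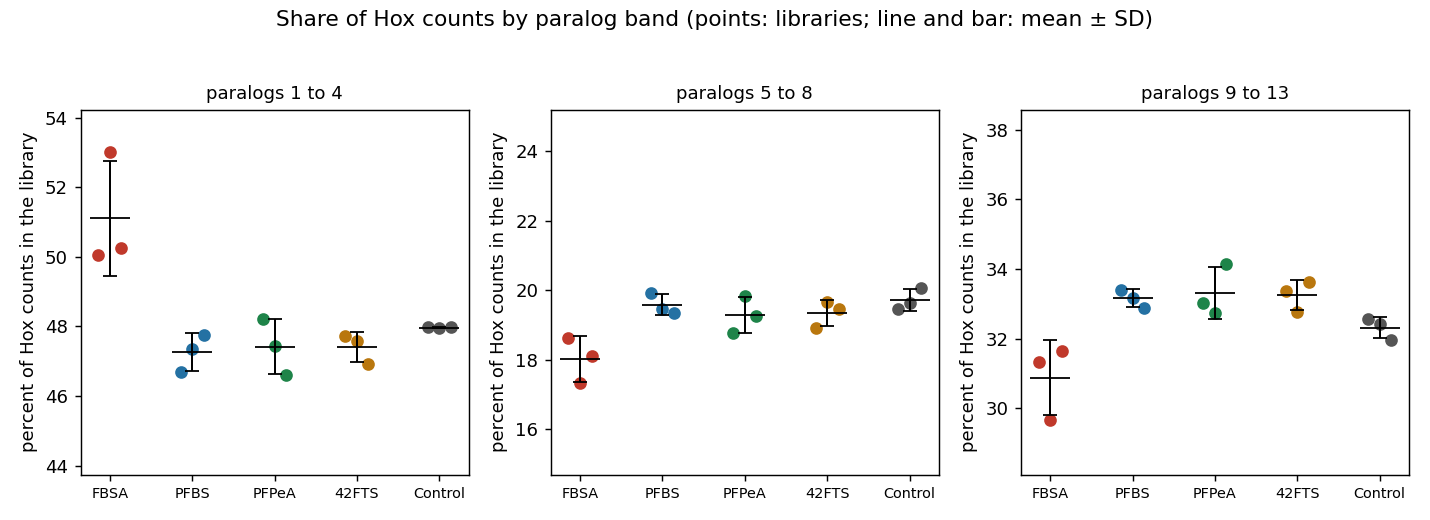
Percent of the Hox counts of each library that fell in paralogs 1 to 4, 5 to 8 and 9 to 13, by group, with points for libraries, lines and bars for the mean ± SD of 3, and axes that do not start at 0. In the first panel the 3 FBSA libraries lie at 50.1% to 53.0%, above the 12 others.

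Of the 4 group 5 genes, 1 was called, and it was lower; in zebrafish hoxb5a and hoxb5b help set where the pectoral fins form. hoxb5a had 28.7, 24.0 and 29.7 CPM in FBSA libraries, against 34.9, 34.4 and 35.1 CPM in Control libraries. All FBSA libraries lay below all Control libraries, and hoxb5a fell by 0.34 on the log2 scale (SE 0.09, adjusted p = 0.0324). hoxb5b, with the most reads of the hoxbb cluster, and hoxc5a had log2 changes of -0.31 (95% CI -0.93 to 0.31) and -0.33 (95% CI -0.61 to -0.04), which did not pass, and hoxa5a had 0.03. The sum over group 5 was 46.5 ± 3.21 CPM in FBSA libraries and 55.6 ± 0.913 CPM in Control libraries (SD, n = 3 each), and the means of the other exposed groups were 53.3 to 56.9 CPM. The call of hoxb5a was lost without FBSA 2, when the log2 change was -0.25 (adjusted p = 0.145). It was also lost without any 1 Control library, with adjusted p-values of 0.0769 to 0.0837.

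The called genes of the hoxbb cluster, hoxb6b and hoxb8b, had under 1 CPM on average, and single libraries set their values. hoxb6b had 0.635, 0.407 and 0.374 CPM in FBSA libraries, against 2.85, 0.427 and 4.42 CPM in Control libraries. Control 1 and Control 3 stood apart from the other 13 libraries, which lay between 0.254 and 0.933 CPM, and Control 2 was within the FBSA range. The log2 change of hoxb6b was -2.42 in FBSA embryos (SE 0.60, adjusted p = 0.019), and values of -2.62 in PFBS, -1.74 in PFPeA and -2.29 in 42FTS embryos did not pass. Without Control 3 the FBSA value was -1.79 (adjusted p = 0.0953) and without Control 1 it was -2.34 (adjusted p = 0.0557). The call was also lost without FBSA 2 (adjusted p = 0.0846) and without FBSA 3 (adjusted p = 0.0626).

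hoxb8b had 2.79, 0.626 and 0.624 CPM in FBSA libraries, against 0.184, 0.122 and 0.482 CPM in Control libraries. FBSA 1 stood apart from its group, as did PFBS a with 2.17 CPM, while PFBS 2 and PFBS b had 0.571 and 0.869 CPM. The log2 change of hoxb8b was 2.39 (SE 0.71, adjusted p = 0.0463), and without FBSA 1 it was 1.29 (adjusted p = 0.266). It was also not called without Control 1 (adjusted p = 0.152) or Control 2 (adjusted p = 0.161). Of their a copies, hoxb6a had a log2 change of -0.01 and hoxb8a of -0.02 in FBSA embryos, and the difference between copies was not tested.

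**Figure D4:**
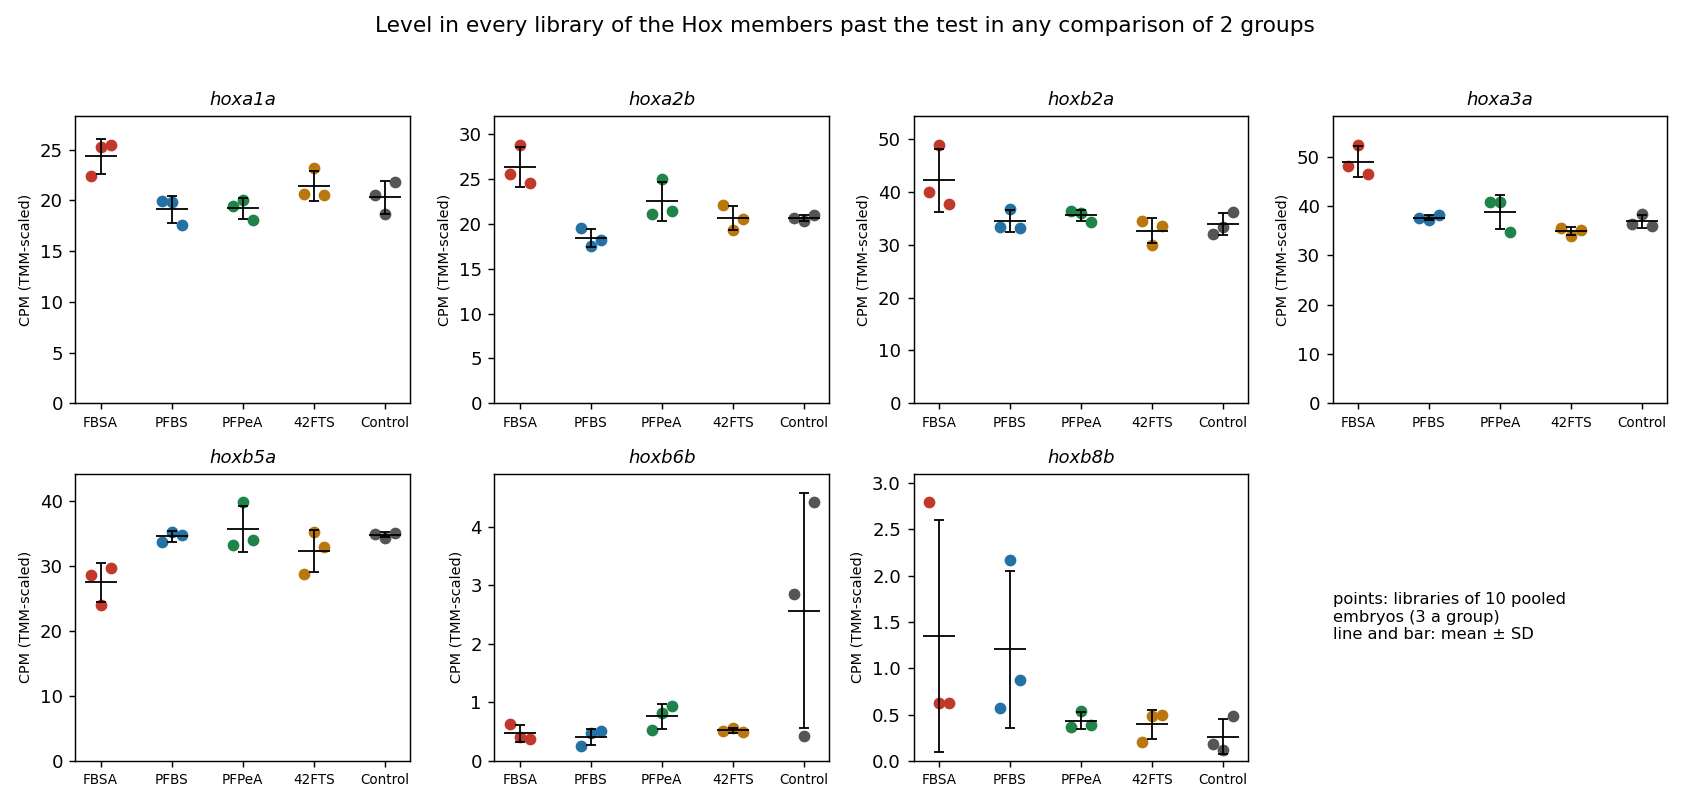
CPM of the 7 Hox genes called in any comparison of 2 groups, by group, on axes that start at 0, with points for the 3 libraries of a group and lines and bars for the mean ± SD. For hoxa3a the 3 FBSA points lie at 46.5 to 52.5 CPM, above the 12 others, while for hoxb6b and hoxb8b 1 or 2 libraries set the mean of a group.

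Among the other trunk genes, hoxc8a, with the most reads of the hoxca cluster, averaged 47.6 ± 2.54 CPM in FBSA libraries and 45.8 ± 3.86 CPM in Control libraries (SD, n = 3 each). hoxc6b, with the most reads of the hoxcb cluster, averaged 13.7 ± 0.0777 CPM in FBSA libraries and 13.3 ± 1.61 CPM in Control libraries. hoxb7a, the one group 7 gene of the table, had 9.84, 9.55 and 11.7 CPM in FBSA libraries, against 9.27, 8.50 and 8.67 CPM in Control libraries. The groups did not overlap, and the log2 change of 0.23 did not pass (adjusted p = 0.186). hoxb7a, hoxc5a and the next genes named for an unadjusted p under 0.05 were chosen after their values were seen.

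At the back of the body, paralogs 9 to 13, 0 of 23 genes were called by edgeR in FBSA embryos. An unadjusted p under 0.05 was found for hoxc9a (log2 change 0.19), hoxc13a (0.34), hoxa11b (-0.22) and hoxb10a (-0.16), with adjusted p-values of 0.102 to 0.21. hoxa13a and hoxa13b, which are needed for the fin rays in zebrafish, had log2 changes of -0.35 (95% CI -0.83 to 0.13) and -0.39 (95% CI -0.81 to 0.03). hoxa13b had 4.89, 3.38 and 6.30 CPM in FBSA libraries, against 6.82, 5.79 and 6.54 CPM in Control libraries, where FBSA 3 lay within the Control range. hoxa9b, with the most reads of the hoxab cluster, averaged 25.5 ± 1.38 CPM in FBSA libraries and 26.5 ± 2.03 CPM in Control libraries (SD, n = 3 each). Over all bands, 16 of 49 Hox genes had FBSA and Control libraries that did not overlap, where 28% of all entries did. An unadjusted p under 0.05 was found for 13 of 49 genes, where 23.7% of all entries had one.

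Taken by cluster, the hoxaa cluster summed to 134 ± 6.51 CPM in FBSA libraries and 115 ± 2.27 CPM in Control libraries (SD, n = 3 each). The lowest FBSA library, at 128 CPM, lay above the highest Control library, at 117 CPM, and hoxa3a alone averaged 49.0 CPM in FBSA libraries and 36.9 CPM in Control libraries. The hoxba cluster summed to 442 ± 14.3 CPM in FBSA libraries and 429 ± 1.30 CPM in Control libraries. The hoxca cluster summed to 221 ± 5.40 CPM in FBSA libraries and 211 ± 8.43 CPM in Control libraries. PFPeA libraries averaged 445 CPM for hoxba and 220 CPM for hoxca, close to FBSA. PFBS libraries averaged 417 and 214 CPM for these clusters, and 42FTS libraries 409 and 203 CPM. The hoxda cluster summed to 149 ± 2.57 CPM in FBSA libraries and 141 ± 1.87 CPM in Control libraries. Here too the lowest FBSA library, at 146 CPM, lay above the highest Control library, at 143 CPM. PFPeA libraries, at 140 to 150 CPM, overlapped FBSA, while PFBS (138 to 142 CPM) and 42FTS libraries (135 to 139 CPM) did not. Of the 7 hoxda genes 0 were called, and their median log2 change was 0.06. FBSA and Control libraries did not overlap in 1 of these 7 genes, and in 28% of all entries. The hoxbb cluster summed to 4.52 ± 1.09 CPM in FBSA libraries and 5.38 ± 2.71 CPM in Control libraries, which overlapped. hoxb6b made up 2.85 of the 5.35 CPM in Control 1 and 4.42 of the 8.11 CPM in Control 3. Sums of the hoxab and hoxcb clusters differed between FBSA and Control by less than 1 SD of the Control libraries.

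Zebrafish keep a and b copies of 11 of these Hox genes. In FBSA embryos 6 of the 11 pairs had changes of the same sign. The copies ran side by side in hoxb1a and hoxb1b (0.35 and 0.49), hoxb5a and hoxb5b (-0.34 and -0.31) and hoxa13a and hoxa13b (-0.35 and -0.39). They ran apart in hoxa11a and hoxa11b (0.20 and -0.22) and in hoxc13a and hoxc13b (0.34 and -0.22). Only hoxb5a, hoxb6b and hoxb8b of these copies were called, and differences within pairs were not tested.

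In PFBS embryos 3 of 49 Hox genes had an unadjusted p under 0.05 by edgeR, where 3.87% of all entries did, and 0% of all entries were called. They were hoxb6b, hoxb8b and hoxd11a. PFBS and Control libraries did not overlap in 8 of 49 Hox genes, and in 9.31% of all entries. hoxd11a, a gene of the late fin and tail, had 10.5, 11.5 and 11.7 CPM in PFBS libraries, against 9.30, 9.23 and 8.39 CPM in Control libraries. The groups did not overlap, and the log2 change was 0.32 (95% CI 0.07 to 0.58, adjusted p = 0.999). Among genes of at least 1 CPM, the largest changes were those of hoxb5b (-0.51, 95% CI -1.14 to 0.11) and hoxb1a (-0.35, 95% CI -0.85 to 0.15). When Control 2 was left out 1 Hox gene, hoxb6b, was called in PFBS embryos. That fit dropped the Control library with 0.427 CPM of hoxb6b and kept Control 1 and Control 3, which stood apart with 2.85 and 4.42 CPM. The share of all entries called in that fit is not given here.

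In PFPeA embryos 4 Hox genes had an unadjusted p under 0.05, hoxb6b, hoxc9a, hoxd9a and hoxd11a, where 5.21% of all entries did, and 0% were called. PFPeA and Control libraries did not overlap in 6 Hox genes, each higher in PFPeA, and in 10.7% of all entries. hoxd11a had 9.51, 11.1 and 11.6 CPM in PFPeA libraries, all above Control, with a log2 change of 0.26. The largest changes of genes of at least 1 CPM were those of hoxa11a (-0.50, 95% CI -1.17 to 0.16), hoxd13a (0.34, 95% CI -0.24 to 0.92) and hoxc1a (0.27, 95% CI -0.17 to 0.71). These 3 genes overlapped Control. hoxd13a had 3.65, 1.93 and 2.22 CPM in PFPeA libraries, against 1.68, 2.62 and 1.85 CPM in Control libraries.

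In 42FTS embryos 2 Hox genes had an unadjusted p under 0.05, hoxb6b and hoxd11a, where 4.07% of all entries did, and 0% were called. 42FTS and Control libraries did not overlap in 3 Hox genes, and in 9.76% of all entries. hoxd11a had 11.1, 9.95 and 11.5 CPM in 42FTS libraries, all above Control, with a log2 change of 0.27. Among genes of at least 1 CPM, the other large changes were those of hoxb5b (-0.37, SE 0.29), the largest, and hoxb1a (-0.27, SE 0.24), whose libraries overlapped those of Control. hoxd11a lay above Control in all 12 exposed libraries, and in FBSA embryos its log2 change was 0.22 (adjusted p = 0.283). The 4 comparisons share the same 3 Control libraries.

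For the front genes, a log2 change above 0 was found for 8 of 14 genes of paralogs 1 to 4 in PFBS (median 0.03), 9 of 14 in PFPeA (median 0.07) and 1 of 14 in 42FTS embryos (median -0.07). For most Hox genes the data bound the size of any change. The 95% CI lay within ±0.5 on the log2 scale for 40 of 49 genes in PFBS, 37 in PFPeA and 37 in 42FTS embryos against Control, and the median interval reached 0.22 to either side.

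The head groups were compared directly at the same dose and time. FBSA and PFBS, which differ in a sulfonamide against a sulfonic acid on the same chain, differed in 4 of 49 Hox genes, where 10.1% of all entries were called, 5.17% higher and 4.98% lower. Their libraries did not overlap in 18 of 49 Hox genes, and in 28.3% of all entries. hoxa2b had 25.6, 28.9 and 24.6 CPM in FBSA libraries, against 17.6, 19.5 and 18.2 CPM in PFBS a, PFBS 2 and PFBS b, a log2 difference of 0.52 (SE 0.09, adjusted p = 0.00249). hoxa3a was higher in FBSA by 0.38 (SE 0.07, adjusted p = 0.00363) and hoxa1a by 0.35 (SE 0.09, adjusted p = 0.0222). hoxb5a was lower in FBSA, with a log2 difference of -0.33 (SE 0.09, adjusted p = 0.035). hoxa2b and hoxa3a kept their calls in all 10 alternative fits. hoxa1a lost its call without FBSA 2 (adjusted p = 0.0767), FBSA 3 (0.0622) or PFBS b (0.0926), and hoxb5a lost its call without FBSA 2 or any 1 PFBS library (adjusted p = 0.0697 to 0.167). For hoxb1a the log2 difference was 0.71 (SE 0.23) and did not pass (adjusted p = 0.0677).

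FBSA and the carboxylic acid PFPeA differed in 3 of 49 Hox genes, where 8.26% of all entries were called, 4.08% higher and 4.18% lower. Their libraries did not overlap in 18 of 49 Hox genes, and in 26.8% of all entries. hoxa3a had 48.1, 52.5 and 46.5 CPM in FBSA libraries, against 40.8, 40.9 and 34.7 CPM in PFPeA libraries, a log2 difference of 0.34 (SE 0.07, adjusted p = 0.00912). In a fit of only these groups hoxa3a was not called (adjusted p = 0.0869). hoxa1a was higher by 0.34 (adjusted p = 0.0288), and hoxb5a was lower with a difference of -0.38 (adjusted p = 0.022). hoxa1a was no longer called without FBSA 2, FBSA 3 or any 1 PFPeA library (adjusted p = 0.0552 to 0.109), and hoxb5a without FBSA 2 (0.114) or PFPeA 2 (0.118). hoxa2b, at 21.1, 25.0 and 21.5 CPM in PFPeA libraries, overlapped FBSA, and its difference of 0.23 did not pass (adjusted p = 0.135).

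FBSA and 42FTS differed in 3 of 49 Hox genes, where 9.8% of all entries were called, 5.69% higher and 4.11% lower. The 3 genes were front genes and higher in FBSA. FBSA and 42FTS libraries did not overlap in 13 of 49 Hox genes, and in 28.3% of all entries. hoxa3a had 35.6, 34.0 and 35.1 CPM in 42FTS libraries, and the log2 difference of FBSA from 42FTS was 0.49 (SE 0.07, adjusted p = 0.000712), which held in all 12 alternative fits. hoxb2a differed by 0.37 (adjusted p = 0.02) and hoxa2b by 0.35 (adjusted p = 0.0221). Both lost their calls without FBSA 2 (adjusted p = 0.11 for hoxb2a and 0.119 for hoxa2b) and without 42FTS 2 (0.0866 for hoxb2a and 0.0915 for hoxa2b), and hoxa2b also without 42FTS 3 (0.0678). Genes of paralogs 1 to 4 lay above 0 in 13 of 14 cases against PFBS (median 0.25), 11 of 14 against PFPeA (median 0.21) and 14 of 14 against 42FTS (median 0.26). These share the FBSA libraries with the comparison against Control.

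Between the acids, 0 of 49 Hox genes were called in any of the 3 pairs by edgeR or DESeq2. By edgeR 0% of all entries were called in each of these pairs, and the share by DESeq2 is not given here. An unadjusted p under 0.05 by edgeR was found for 4 genes in PFBS against PFPeA (4.83% of all entries), 1 in PFBS against 42FTS (4.39%) and 5 in PFPeA against 42FTS (6.82%). Libraries did not overlap in 8 Hox genes in PFBS against PFPeA (10.3% of all entries), 5 in PFBS against 42FTS (10.2%) and 8 in PFPeA against 42FTS (13.5%). The 95% CI of the log2 difference lay within ±0.5 for 38 of 49 genes in PFBS against PFPeA, 38 in PFBS against 42FTS and 37 in PFPeA against 42FTS. The widest differences outside hoxb6b and hoxb8b were -0.48 for hoxb1a in PFBS against PFPeA (95% CI -0.98 to 0.02), 0.21 for hoxc11b in PFBS against 42FTS and -0.42 for hoxa11a in PFPeA against 42FTS (95% CI -1.08 to 0.25). Of the 14 front genes, 13 lay above 0 in PFPeA against 42FTS (median 0.12), 10 in PFBS against 42FTS (median 0.06) and 2 in PFBS against PFPeA (median -0.07). Over all Hox genes 41 of 49 lay above 0 in PFPeA against 42FTS, as did 53.9% of all entries. A test of any difference among the 5 groups called hoxa3a (adjusted p = 0.00328), hoxa2b (0.0156) and hoxb6b (0.0227), 3 of 49 genes, where 6.38% of all entries were called.

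The authors' deposited table of differential expression lists 1909 entries, all with an FBSA Q under 0.05, and holds 2 Hox genes. For hoxa3a the authors' deposited table gives a log2 change of 0.42 in FBSA embryos (Q = 0.00457) and for hoxb1b one of 0.42 (Q = 0.00216). The TPM (transcript abundance scaled by length and depth) of hoxb1b in the authors' deposited table were 31.5, 36.0 and 31.2 in FBSA libraries, against 24.8, 24.4 and 27.4 in Control libraries, and the groups did not overlap. That gene has far fewer reads in the count table, where each library held 16 to 58 reads, while the authors' deposited table gives 513 to 900 estimated counts. For hoxa3a the difference ran the other way, with 848 to 1677 reads in the count table and 322 to 600 estimated counts in the authors' deposited table. In RefSeq's annotation of another assembly (GRCz12tu) the spans of 18 of the 49 Hox genes overlap another Hox gene, among them hoxb1b with hoxb5b and hoxb6b, hoxa3a with hoxa4a and hoxa5a, and hoxb3a with hoxb4a, hoxb5a and hoxb6a. Reads of such genes could be shared or dropped, so their levels are uncertain, and the part of this in the results was not tested. A further share was taken within the Hox genes that overlap no other Hox gene. Of the counts of these genes alone, front genes held 19.9% to 22.9% in FBSA libraries and 17.2% to 18.3% in Control libraries.

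Genes that work with the Hox clusters were also read in FBSA embryos, where 9.53% of all entries were called, 5.28% higher and 4.25% lower. Of 14 tested cofactors of the Pbx, Meis and Prep families, 0 were called higher and 3 lower, pbx3b (-0.71), pknox2 (-0.32) and meis2a (-0.20), with a list median of -0.04. The authors' deposited values are -0.38 for pbx3b, -0.32 for pknox2 and -0.21 for meis2a. Of 11 tested upstream regulators 2 rose and 0 fell, with a list median of 0.10. Of these cdx4 (1.30), a caudal homeobox gene that activates posterior Hox genes, averaged only 1.04 CPM over all libraries. The other was egr2a (0.76), an early growth response factor. Of 21 tested genes of retinoic acid metabolism and reception 1 rose, cyp26c1 (0.30), which encodes an enzyme that degrades retinoic acid, with a list median of 0.07. The authors' deposited value for egr2a is 0.68, while cdx4 and cyp26c1 are not listed in the authors' deposited table of differential expression. Of 25 tested Polycomb and Trithorax genes 1 rose, cbx2 (0.69), and 4 fell, kmt2d (-0.36), kdm6bb (-0.35) and suz12a (-0.29) among them, with a list median of -0.03. Of 21 tested non-Hox genes listed as lying near the clusters, among which cbx1b has 32 genes between it and the nearest Hox gene in GRCz12tu, 1 rose, hibadha (1.00), a mitochondrial dehydrogenase gene near hoxa13a, and 2 fell, hnrnpa1a (-0.28) and nfe2l3 (-0.23), with a list median of 0.02. Of 7 tested ParaHox and related homeobox genes 1 rose, gsx1 (0.67), with a list median of 0.13. No gene of any list was called in PFBS, PFPeA or 42FTS embryos against Control, where 0% of all entries were called.

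Markers of tissues and cell types were read against the same 5.28% of all entries called higher and 4.25% called lower in FBSA embryos. In whole embryos these markers are not limited to the regions that use Hox genes. Of 10 neural progenitor markers 4 rose (sox3, dla, dld and notch1a) and 0 fell, and their summed level was 1777 to 2000 CPM in FBSA libraries and 1526 to 1668 CPM in Control libraries. Of 10 neuron markers 0 rose and 1 fell, elavl4 (-0.63). Their sums were 1763 to 1837 CPM in FBSA libraries and 1850 to 1859 CPM in Control libraries. elavl4 averaged 384 CPM over all libraries and so weighs heavily in these sums. The median log2 change of the neuron list was 0.003, so the sums do not show a fall of the list as a whole. Of 10 pharyngeal arch and neural crest markers 1 rose, dlx3b (0.37), and of 12 pectoral fin markers 1 rose, sall4 (0.52). Among 9 somite and muscle markers myf5 rose (0.66) and acta1b fell (-0.80). Of 8 epidermal markers 2 rose and 1 fell, of 7 markers of pronephros and intestine 1 rose, and of 4 blood markers 0 were called by edgeR. The part of these cell types in the Hox results was not tested.

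The authors' deposited enrichment table gives 4 of the 78 genes of the term anterior/posterior pattern specification among 1711 FBSA genes, of 20724 in all, with Q = 0.934. The authors' deposited transcription factor table, made on human network objects, lists HOXA5 with 5 objects against 1.31 expected (ratio 3.81, p = 0.00667). In that authors' deposited table CDX1 has a ratio of 3.57 and PBX2 of 4.96.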

How the data were processed

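Messenger RNA of 15 libraries (3 for each of 5 groups) had been read on a BGISEQ-500, per the labels' protocols. The authors deposited a table of read counts per gene, not normalized. Without versions or roles, GRCz11 is named as the build in the submitters' processing notes, and DESeq2, RSEM, Bowtie2, HTSeq and HISAT2 as tools. Whether counting used strand is not stated in those sources. The authors' deposited table of differential expression holds log2 ratios, p-values and q-values, estimated counts and TPM per library, and 30 further columns of values per sample or group were not used. The authors' deposited transcription factor table gives a ratio of objects found to expected. Counts were fitted in R 4.3.3 with edgeR 4.0.16: filterByExpr (minimum count 10), TMM scaling, a robust quasi-likelihood model over 15 libraries with group as the term, two-sided F-tests for 10 pairs of groups and for any difference, and Benjamini-Hochberg adjustment over 23874 entries. DESeq2 1.42.0 was an alternative. The code was tested on simulated data. CPM are TMM-scaled, errors are SD or SE, and intervals are at 95%. The category lines of the count table (63.7% to 66.6% of reads were in genes) stayed out of the fits. Named genes are all Hox members past the test in any comparison, the 3 with the largest change against Control per compound at a mean of at least 1 CPM, the one with most reads per cluster, and up to 4 called genes of each pathway list. The members, paralog bands and the lists (6 of pathways, 8 of tissue markers) were chosen with earlier results of these data known. Libraries of a group differed by more than sampling noise, so none was counted as a repeat.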

Additional observations from a re-analysis of the deposited data

How the results depend on the processing

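The 9 Hox genes with a mean under 3 CPM had the 9 widest intervals in FBSA against Control, and at this depth small changes of theirs were not detectable. For hoxb6b and hoxb8b 1 or 2 libraries that stood apart set the spread. The count of 6 called Hox genes in FBSA against Control was 1 in a fit of those groups alone, 2 without Control 3 and 42FTS 2, and 1 to 5 with 1 library left out in turn (1 without Control 1, 2 without Control 2 or FBSA 2, 3 without Control 3). It was 6 with RLE size factors, without the low-count filter and with DESeq2. hoxa3a was called in every one of these, and the other 5 genes each lost their call in 6 or 7 of 12 alternatives. The count of 0 for PFBS against Control was 0 to 1 with 1 library left out. For FBSA against PFBS the count of 4 was 7 with DESeq2, 2 in the fit of the pair alone and 2 to 6 with 1 library left out (2 without FBSA 2 or PFBS b). For FBSA against PFPeA the count of 3 was 0 in the fit of the pair alone and 1 to 3 with 1 library left out (1 without FBSA 2 or PFPeA 2). For FBSA against 42FTS the count of 3 was 1 in the fit of the pair alone and 1 to 5 with 1 library left out (5 without FBSA 1, 1 without FBSA 2 or 42FTS 2). The test of any difference called 7 Hox genes with DESeq2 and 1 to 3 with 1 library left out. The median log2 change of paralogs 1 to 4 in FBSA was 0.13 to 0.25 with 1 library left out. The share of all entries called in each alternative fit is not given here. The counts therefore do not set Hox genes apart from other entries. The causes were not tested. With the replicate number as a block, 2 Hox genes were called in FBSA against Control and 1 in FBSA against PFPeA. PFBS had no usable numbers and stayed out of that fit. The correlation of deviations between same-numbered libraries was -0.07 to 0.12 over 18 pairs, over 0.1 in 1. With 3 libraries a group, such values cannot tell whether same-numbered pools shared a clutch. No value changed its direction past the test in any alternative.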
